A study of Mus musculus with 10 samples.

Results

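The 41 genes described here are markers of macrophages, monocytes and dendritic cells, together with genes that macrophages switch on when they polarize. They were chosen by symbol from a fixed list, and each was found under its Ensembl identifier among the 55359 genes of the table. RNA was sequenced from 10 orthotopic pancreatic tumors grown from the murine line KPC K8484, a single line that carries Trp53 R172H/+ and Pdx1-Cre and expresses luciferase. The cells were injected into the pancreas of immunocompetent C57BL/6 mice (C57BL/6 J in the study's methods) at 10 weeks of age, with males and females in equal number per the methods. The comparison asks how forced hyperglycemia altered the tumors. CTRL stands for the 5 tumors of normoglycemic mice on regular drinking water, and D30 for the 5 tumors of mice given 30% dextrose in it, each for 14 days. The columns of the table are called N1, N2, N4, N5 and N6 for CTRL and T1, T2, T4, T5 and T7 for D30, and values per tumor are always given in that order.

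The unit throughout is the normalized count, the reads of a gene divided by 1 size factor per tumor. The tumors held 29915331 to 42122304 recovered reads in CTRL and 29192261 to 37126175 in D30. Genes with at least 1 read numbered 24200 to 25912 in CTRL and 20482 to 24716 in D30, with the fewest in T5. In a tumor where a gene had no read, a level of up to 2.17 to 3.47 normalized counts was still possible, depending on the tumor and for counting error only. Both T4 and T5 stood apart from the other D30 tumors in these genes. T4 was the highest of the 10 tumors for 18 of the 41 members, and it alone held reads of the Y-linked genes Ddx3y, Eif2s3y, Kdm5d and Uty (841 reads against 0 in each of the other 9). Among these 10 tumors that is not an equal split of the sexes, the labels give no sex, and the part of the host's sex in T4's values was not tested. T5 was the lowest of the 10 for 17 members and had no read of 7. Fold changes without both tumors are therefore drawn for every member in the plot of fold changes and printed where the call or the size moved. Because both tumors stood apart in the members' own values, p-values of fits without them describe the remaining tumors and are not independent support.

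Macrophages in a tumor arise from circulating monocytes and from cells resident in the tissue before the tumor grew. Their survival depends on the receptor CSF1R and its ligand CSF1, and the transcription factor PU.1, encoded by Spi1, sets up most of their gene program. Resident and alternatively activated macrophages carry scavenger receptors such as CD163 and the mannose receptor, others take up lipid and dying cells through TREM2, MERTK and AXL, and conventional dendritic cells depend on FLT3 and, for the cross-presenting kind, on BATF3 and IRF8. In pancreatic cancer, macrophages are among the most frequent immune cells.

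PU.1 binds purine-rich sites with the core GAGGAA. These letters, on either strand, were searched in a window of the 250 bases before the RefSeq start. They were found in 16 of the 32 members with a window and in 25.9% of 27025 genes with one. TGACTCA, the AP-1 motif, was found in 2 of the 32 (6.25%) and in 5.16% of all windows. The 2 motifs do not overlap, and a match shows letters, not binding. The 250 bases before the start are printed for the members with the largest fall and the largest rise past the test, and for Mrc1, the scavenger receptor with the most reads, which held the most matches of the 3. They are from RefSeq (GRCm38.p6), plus strand, 5′ to 3′, with GAGGAA or its reverse complement TTCCTC in capitals, at chr6:124304401-124304650 for Cd163, chr2:14229164-14229413 for Mrc1 and chr6:49036268-49036517 for Gpnmb.
Cd163: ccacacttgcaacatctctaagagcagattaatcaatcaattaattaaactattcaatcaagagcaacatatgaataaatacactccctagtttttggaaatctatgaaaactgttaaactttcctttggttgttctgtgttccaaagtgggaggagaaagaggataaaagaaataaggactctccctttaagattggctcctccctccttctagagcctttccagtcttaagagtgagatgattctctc
Mrc1: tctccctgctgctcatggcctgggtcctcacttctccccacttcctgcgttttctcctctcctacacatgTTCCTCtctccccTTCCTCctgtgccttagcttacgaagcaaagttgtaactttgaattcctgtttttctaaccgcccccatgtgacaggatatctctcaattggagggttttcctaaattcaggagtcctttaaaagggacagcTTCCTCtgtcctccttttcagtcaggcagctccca
Gpnmb: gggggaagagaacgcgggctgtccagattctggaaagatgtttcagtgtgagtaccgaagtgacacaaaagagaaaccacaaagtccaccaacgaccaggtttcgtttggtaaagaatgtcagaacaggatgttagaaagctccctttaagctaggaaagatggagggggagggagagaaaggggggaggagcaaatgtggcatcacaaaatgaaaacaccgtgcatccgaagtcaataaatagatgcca

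D30 tumors held less Cd163 and less Csf1r RNA than CTRL tumors and more Gpnmb RNA, and these 3 of the 41 members passed the test (limma, Benjamini-Hochberg adjusted p under 0.05 over all 24560 tested genes). Of all tested genes 2.76% passed, 1.4% higher and 1.36% lower in D30. Most members lay on the low side without passing: 32 had a log2 fold change below 0 and 9 above, with a median of -0.41, beside 54.7% of all tested genes below 0 and a median of -0.06. At an unadjusted p under 0.05 there were 15 members, 11 lower and 4 higher in D30, beside 17.3% of all genes (9.54% lower, 7.79% higher). The 2 groups did not overlap in 5 members, Adgre1, Csf1r, Cd163 and Sirpa with every D30 tumor below every CTRL tumor and Gpnmb with every D30 tumor above, where 6.19% of all genes did not overlap (3.32% lower, 2.87% higher). A two-sided exact permutation test of the log2 level had p under 0.05 in 13 members and in 17.8% of all genes. The smallest p it can give for 5 tumors against 5 is 0.00794. In RNA from whole tumors, fewer cells of a type and less RNA per cell cannot be told apart.

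Without T4 and T5 the median of the members was -0.65, and 8 passed, Cd14, Cd163, Csf1r, Mertk, Mrc1, Sirpa and Spp1 lower and Gpnmb higher, where 8.57% of all genes passed. Without T4 alone 9 passed (6.23% of all genes), by DESeq2 8 (8.08%; Lyz2, Ctss, Msr1, Fcgr3, Fcgr4 and Nos2, 6 members, got no adjusted p from it) and by edgeR's quasi-likelihood test 2, Cd163 and Gpnmb (2.61%). Without N2, a CTRL tumor, none of the 41 passed by limma and 13 had an unadjusted p under 0.05 (12.6% of all genes): the adjusted p was 0.0663 for Cd163, 0.0895 for Gpnmb and 0.146 for Csf1r, and 1.1% of all genes passed. When the tumors were scaled by their total reads, the median over the tested genes was -0.27 in place of -0.06, 6 members passed (3.53% of all genes), and of the 866 genes called 240 were higher and 626 lower, against 344 and 334 in the deposited scaling.

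**Figure D1:**
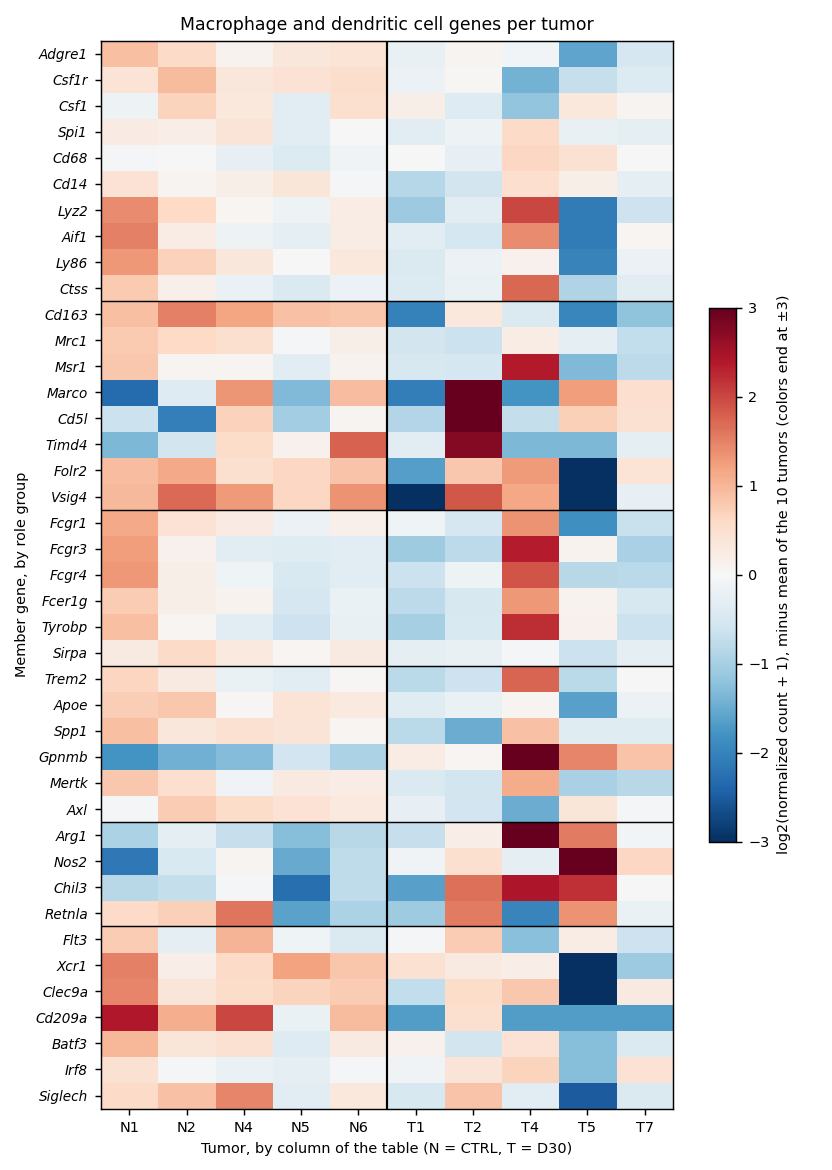
Log2(normalized count + 1) of each of the 41 members in each of the 10 tumors, minus that gene's mean over the 10 tumors, with colors ending at 3 in either direction, CTRL (N columns) left and D30 (T columns) right of the line. Csf1r, Adgre1, Cd163 and Sirpa are lower in every D30 tumor than in any CTRL tumor and Gpnmb is higher, while T4 is the highest of all tumors for 18 members and T5 the lowest for 17.

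Among the 10 genes that identify the lineage, Csf1r fell in D30, and 9 of the 10 had a log2 fold change below 0 (median -0.50). Csf1r encodes the receptor for CSF1 on which tissue macrophages depend. It lay at 2442, 3528, 2323, 2487 and 2652 normalized counts in CTRL and at 1618, 1891, 693, 1136 and 1390.1 in D30. Every D30 tumor was below every CTRL tumor, with T4 the lowest. The mean was 2686 ± 485 (SD, n = 5) in CTRL and 1346 ± 459 in D30, a log2 fold change of -1.06 (SE 0.26, limma adjusted p = 0.0449). By edgeR's quasi-likelihood test the adjusted p was 0.0583, and by limma it passed in 2 of the 10 fits that left out 1 tumor, those without T2 or T4. Without T4 and T5 the log2 fold change was -0.71 (limma adjusted p = 0.0289). Exons of Csf1r share bases with Hmgxb3 on the other strand, and whether reads were counted by strand is not given in the sources used here.

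Adgre1 encodes F4/80, the surface protein by which mouse macrophages are usually sorted. It measured 858, 679, 489, 575 and 603 normalized counts in CTRL and 389.7, 480.0, 427, 151 and 322 in D30. The groups did not overlap, although T2 (480.0) was close to N4 (489), and T5 was far below the rest. The log2 fold change was -0.93 (SE 0.30) and missed the threshold (limma adjusted p = 0.131). Ly86 encodes MD-1, the partner of RP105 at the surface of myeloid and B cells. Its levels were 826, 537, 421, 329 and 418 in CTRL and 246, 296, 364, 82.4 and 296 in D30. Only T4 among the D30 tumors was above the lowest CTRL tumor, N5, and T5 was far below all others. This gave a log2 fold change of -1.06 (SE 0.39, limma adjusted p = 0.178).

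Lysozyme 2 and cathepsin S, secreted and lysosomal enzymes of phagocytes, were the most abundant of the lineage genes beside Cd14 and were spread widely between tumors. Lyz2 stood at 30899, 17584, 12005, 10359 and 13578 normalized counts in CTRL and at 5393, 9122, 46217, 2716 and 7547 in D30. Every D30 tumor but T4 was below every CTRL tumor, and T4 was the highest of the 10, so that the log2 fold change of -0.86 came with an SE of 0.59 (limma adjusted p = 0.491). Without T4 it passed (limma adjusted p = 0.0333), and without T4 and T5 it did not (-1.12, limma adjusted p = 0.0758). Reads of Lyz2 may be shared with its close copy Lyz1. Ctss, cathepsin S, lay at 7157, 4621, 3625, 3059 and 3686 in CTRL and 3116, 3584, 13680.4, 2223 and 3253 in D30. T4 was again the highest, T5 was below the CTRL range, and T1, T2 and T7 were in its lower part. For Ctss the log2 fold change was -0.06 (SE 0.42, limma adjusted p = 0.963) and turned to 0.21 by edgeR, and it was -0.35 without T4 and T5.

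The other 5 lineage genes had unadjusted p values above 0.05. Cd14, the co-receptor for lipopolysaccharide, lay between 4765 and 6645 normalized counts in CTRL and between 2754 and 6982 in D30, where T4 was highest. Spi1, the gene of PU.1, ranged from 449.7 to 741 in CTRL and from 451 to 844 in D30. Cd68, a lysosomal membrane protein of macrophages, was the 1 lineage gene with a log2 fold change above 0 (0.33, limma adjusted p = 0.426), at 800.3 to 1055 in CTRL and 904 to 1631 in D30. Aif1, the actin-binding protein IBA1, spanned 198 to 690.1 in CTRL and 56.1 to 652 in D30. Csf1, the ligand of CSF1R, ranged from 552 to 1086 in CTRL and 297 to 852 in D30. In all 5 of these genes the groups overlapped.

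**Figure D2:**
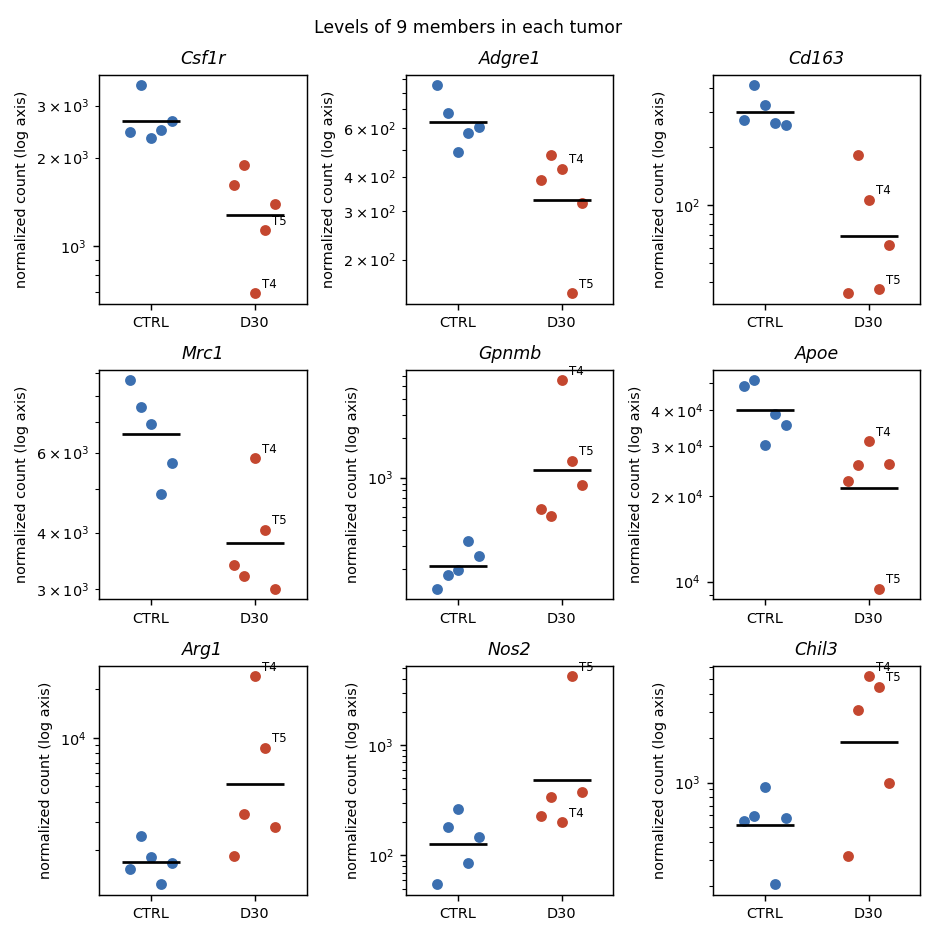
Normalized counts (log axes, each gene with its own) of 9 members in the 5 CTRL and 5 D30 tumors, 1 point a tumor, with the mean on the log scale as a line and T4 and T5 labelled. Csf1r, Adgre1, Cd163 and Gpnmb show no overlap between groups, and T4 or T5 is the highest D30 tumor for Mrc1, Gpnmb, Apoe, Arg1, Nos2 and Chil3.

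The scavenger receptors held the largest fall past the test. Cd163, which takes up haemoglobin bound to haptoglobin and marks resident and alternatively activated macrophages, lay at 272, 416, 329, 265 and 259 normalized counts in CTRL and at 35.0, 179.8, 106, 36.6 and 61.8 in D30. The lowest CTRL tumor was above the highest D30 tumor, T2, and T1 and T5 were the lowest of all. The mean was 308 ± 66.2 (SD, n = 5) in CTRL and 83.9 ± 60.9 in D30, 3.67 times lower, with a log2 fold change of -2.12 (SE 0.42, limma adjusted p = 0.0174). It passed by edgeR (adjusted p = 0.0382), by DESeq2 (adjusted p = 0.000585) and without T4 and T5 (limma adjusted p = 0.0243), and in 9 of the 10 fits that left out 1 tumor. The promoter printed above for Cd163 holds no GAGGAA, on either strand.

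Mrc1, the mannose receptor CD206, was the scavenger receptor with the most reads. It measured 8652, 7576, 6932, 4857 and 5691 normalized counts in CTRL and 3400.2, 3213, 5839.7, 4059 and 3009 in D30. T4 was above the CTRL tumors N5 and N6, while the other 4 D30 tumors were below every CTRL tumor. The log2 fold change was -0.80 (SE 0.23) and missed the threshold with all tumors (limma adjusted p = 0.0802). Without T4 and T5 it was -1.04 and passed (limma adjusted p = 0.0114). Msr1, the class A scavenger receptor for modified lipoproteins, lay at 1329.7, 813, 810.4, 607 and 815 in CTRL and 548, 529, 4001, 303 and 441 in D30. T4 was the highest of the 10 tumors and the other 4 D30 tumors were the lowest. For Msr1 the log2 fold change was -0.30 (SE 0.55, limma adjusted p = 0.833) and turned to 0.39 by edgeR. With both T4 and T5 left out it was -0.75 (limma adjusted p = 0.0750).

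Marco and Cd5l, which encode a scavenger receptor of particle-clearing macrophages and a secreted protein of resident macrophages, were highest in T2. Marco lay between 18.9 and 248 normalized counts in CTRL and between 22.6 and 1467 in D30, and Cd5l between 2.17 and 20.1 and between 6.17 and 135. Timd4, a receptor for phosphatidylserine on resident macrophages, was at or below 16.0 in every tumor, with T2 highest. Folr2, the folate receptor of resident macrophages, ranged from 39.3 to 62.2 in CTRL and from 0 to 69.4 in D30. Vsig4, a complement receptor of resident macrophages, ranged from 30.1 to 64.3 in CTRL and from 0 to 72.2 in D30, with no read in T1 and T5. None of these 5 had an unadjusted p under 0.05, and in each the highest of the 10 tumors was T2 or T4. Vsig4 had a log2 fold change of -2.37 (SE 1.10, limma adjusted p = 0.291), a value that depends on the pseudocount because of the 2 tumors with no read.

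Of the 6 genes for Fc receptors, their adaptors and the inhibitory receptor SIRPα, none passed by limma, 1 (Sirpa) had an unadjusted p under 0.05, and 5 had a log2 fold change below 0 (median -0.18). By DESeq2 Sirpa passed (adjusted p = 0.0148), and by edgeR none did. Sirpa, which receives the signal of CD47 that restrains phagocytosis, had the smallest spread between tumors. It lay at 1553, 1913, 1576, 1346 and 1547 normalized counts in CTRL and at 1048, 1108, 1264, 823 and 1072 in D30. No D30 tumor reached a CTRL tumor. The mean was 1587 ± 204 (SD, n = 5) in CTRL and 1063 ± 158 in D30, with a log2 fold change of -0.58 (SE 0.18, limma adjusted p = 0.106). Without T4 and T5 the log2 fold change was -0.55 and passed (limma adjusted p = 0.029).

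The activating Fc receptors and adaptors were led by T4. Fcgr3, the low-affinity receptor for IgG, measured 4907, 2258, 1631, 1605 and 1656 normalized counts in CTRL and 989, 1197, 10526, 2224 and 1050.3 in D30. T1, T2 and T7 were the 3 lowest tumors and T4 was the highest, far above N1. Fcgr3 had a log2 fold change of -0.14 (SE 0.57, limma adjusted p = 0.928), and its direction turned by edgeR and DESeq2, while without T4 and T5 it was -1.01 (limma adjusted p = 0.106). Reads of Fcgr3 may be shared with the similar gene Fcgr2b. Tyrobp encodes DAP12, the adaptor of TREM2 and other activating receptors. It stood at 1592, 888, 676, 554 and 733 in CTRL and at 429, 622, 3967, 933 and 548 in D30. T4 was again the highest and T1 the lowest. Tyrobp had a log2 fold change of 0.10 (SE 0.51, limma adjusted p = 0.950), and it was -0.13 when tumors were scaled by library size and -0.65 without T4 and T5.

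Fcer1g, the common γ chain of Fc receptors, ranged from 759 to 1818 normalized counts in CTRL and from 621 to 2636 in D30. Fcgr1, the high-affinity IgG receptor, ranged from 305 to 759 and from 95.0 to 872, and Fcgr4, a receptor for IgG2a and IgG2b, from 273 to 925 and from 211 to 1403. In all 3 the highest of the 10 tumors was T4. Fcgr4, Fcgr3 and Fcer1g lie close together on chromosome 1, between positions 171018920 and 171234365 (GRCm38).

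The lipid-associated and clearance genes held the largest rise, in Gpnmb, beside 5 genes with log2 fold changes below 0. Gpnmb encodes a lysosomal glycoprotein of lipid-laden macrophages that other cells, tumor cells among them, can also make. It lay at 141, 180.0, 197, 329 and 251.6 normalized counts in CTRL and at 573, 509.7, 5529.8, 1345 and 885 in D30. Every D30 tumor was above every CTRL tumor, and T4 was far above the rest. The mean was 219.8 ± 73.0 (SD, n = 5) in CTRL and 1768 ± 2128 in D30, and the log2 fold change was 2.43 (SE 0.54, limma adjusted p = 0.0298). Without T4 and T5 it was 1.59 (limma adjusted p = 0.0124). It passed in 3 of the 10 fits that left out 1 tumor. Its printed promoter, too, holds no GAGGAA on either strand.

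Apoe, the lipid carrier that macrophages secrete, and Spp1, the secreted phosphoprotein osteopontin, were the most abundant members per kilobase in CTRL. Apoe measured 48789, 50862, 30150.3, 38650.1 and 35606 normalized counts in CTRL and 22622, 25602, 31165, 9434 and 25783 in D30. T4 was just above N4, the other D30 tumors were below every CTRL tumor, and T5 was the lowest. The log2 fold change was -0.91 (SE 0.30, limma adjusted p = 0.142). Spp1 lay at 101845, 69074, 74969, 71384 and 56948 in CTRL and at 30945, 19343, 101201, 42643 and 42732 in D30. Only T4 fell within the CTRL range, near its top, and the other 4 D30 tumors were below it. For Spp1 the log2 fold change was -0.86 (SE 0.36, limma adjusted p = 0.248) with all tumors and -1.32 without T4 and T5, where it passed (limma adjusted p = 0.0216). An exon of Spp1 shares bases with Gm42793 on the same strand.

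Axl and Mertk encode receptors that bind dying cells through bridging proteins, among them GAS6. Axl stood at 8263, 14497, 12569, 11578 and 10477 normalized counts in CTRL and at 7178, 5739.9, 3037, 10998 and 8268 in D30. T5 and T7 fell within the CTRL range, and T4 was the lowest of the 10. This gave a log2 fold change of -0.80 (SE 0.30, limma adjusted p = 0.192). Mertk ranged from 323 to 606 in CTRL and from 175 to 754 in D30, with T4 highest and every other D30 tumor below the CTRL range. Trem2, the lipid receptor that signals through DAP12, ranged from 379.8 to 747 in CTRL and from 270.4 to 1589 in D30, again with T4 highest.

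**Figure D3:**
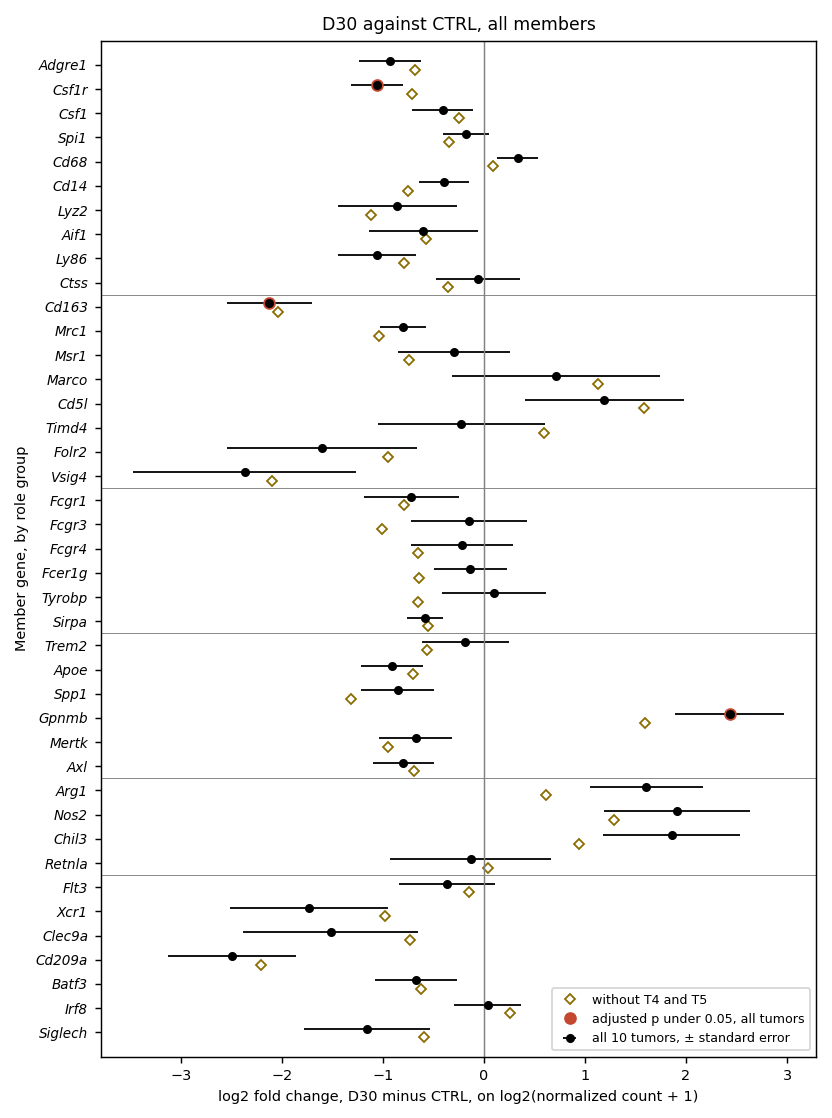
Log2 fold change (D30 minus CTRL on log2(normalized count + 1), bars ± SE) of all 41 members by role group, with the value without T4 and T5 as an open diamond and members past adjusted p under 0.05 as larger red points. Cd163 (-2.12), Csf1r (-1.06) and Gpnmb (2.43) pass with all tumors, and 3 of the 4 polarization genes lie above 0 with and without T4 and T5.

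Of the 4 polarization genes, Arg1, Nos2 and Chil3 had higher means in D30, but none passed by limma (median log2 fold change 1.73, and 0.78 without T4 and T5). All 3 had an unadjusted p under 0.05, and by DESeq2 Arg1 and Chil3 passed while by edgeR none did. Arg1 encodes arginase 1, which breaks down arginine in alternatively activated macrophages and in neutrophils. It measured 1523, 2441, 1817, 1224 and 1655 normalized counts in CTRL and 1839, 3367, 24255, 8668 and 2774 in D30. T1 lay within the CTRL range, and the other 4 D30 tumors were above it, T4 by far the most. Arg1 had a log2 fold change of 1.61 (SE 0.56, limma adjusted p = 0.155) and 0.61 without T4 and T5, and the adjusted p by DESeq2 was 0.00353. Nos2, the inducible nitric oxide synthase of classically activated macrophages, stood at 54.7, 181, 263, 85.9 and 146 in CTRL and at 230.3, 342, 200.1, 4240.0 and 378 in D30. T1 and T4 were below N4, and T5 was far above all others. The log2 fold change was 1.91 (SE 0.73, limma adjusted p = 0.195), 1.13 without T5 and 1.28 without T4 and T5 (limma adjusted p = 0.125).

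Chil3, the chitinase-like protein YM1, is made by alternatively activated macrophages and by neutrophils. It lay at 548, 598, 936, 205 and 578 normalized counts in CTRL and at 319, 3087, 5254, 4461 and 995 in D30. T1 was within the CTRL range, T7 was just above it, and T2, T4 and T5 were far above. For Chil3 the log2 fold change was 1.86 (SE 0.68, limma adjusted p = 0.176), the exact permutation p was 0.0794, and the adjusted p by DESeq2 was 0.00334. With both T4 and T5 left out it was 0.94 (limma adjusted p = 0.434). Retnla, the resistin-like protein FIZZ1 and the usual companion of Arg1 and Chil3, stayed low, at 1.77 to 24.7 in CTRL and 1.16 to 24.1 in D30. Reads of Chil3 and Retnla may be shared with close copies in their families.

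Markers of neutrophils, which also make arginase and YM1, leaned higher in D30 too, with the largest sums in T5 and T2. All 8 of the list (S100a8, S100a9, Csf3r, Cxcr2, Ly6g, Retnlg, Mmp8 and Camp) had log2 fold changes above 0 (median 1.71, and 0.92 without T4 and T5). Of them 4 had an unadjusted p under 0.05 by limma, beside 17.3% of all tested genes. None passed by limma (2.76% of all genes), while Mmp8 passed by edgeR (2.61%) and Mmp8 and S100a9 by DESeq2 (8.08%). Their summed level ranged from 679 to 3337 normalized counts in CTRL and from 825 to 16498 in D30, with T5 highest and T2 next (6258). T4 (3551) was just above N1, the highest CTRL tumor, and T1 (825) and T7 (1572) lay within the CTRL range. The part of neutrophils in the values of Arg1, Nos2 and Chil3 was not tested.

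Of the 7 dendritic cell genes, 6 had log2 fold changes below 0 and none passed by limma (median -1.16, and -0.62 without T4 and T5). Xcr1 and Cd209a had an unadjusted p under 0.05, and Cd209a passed by DESeq2 (adjusted p = 0.0459) but not by edgeR. All of them but Irf8 were below 100 normalized counts in every tumor. Xcr1, the chemokine receptor of cross-presenting dendritic cells, lay at 50.5, 19.5, 25.6, 40.7 and 30.8 normalized counts in CTRL and at 23.6, 20.6, 19.7, 0 and 7.46 in D30. T1, T2 and T4 were above the lowest CTRL tumor, and T5 held no read. In D30 against CTRL, the log2 fold change was -1.73 (SE 0.78, limma adjusted p = 0.277) and -0.98 without T4 and T5. Cd209a, the lectin of monocyte-derived dendritic cells, stood at 15.8, 5.78, 11.9, 1.77 and 5.13 in CTRL and at 0, 3.44, 0, 0 and 0 in D30. All reads of the 5 D30 tumors were in T2, whose level was above N5. The log2 fold change of -2.49 (SE 0.63, limma adjusted p = 0.0554) depends on the pseudocount and is no bound.

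Batf3 and Irf8 encode the transcription factors of cross-presenting dendritic cells, and Irf8 also acts in monocytes, macrophages and B cells. Batf3 measured 82.1, 52.0, 55.7, 31.0 and 48.8 normalized counts in CTRL and 44.2, 27.5, 55.5, 16.0 and 29.8 in D30. The groups overlapped, with N1 highest and T5 lowest, and the log2 fold change was -0.68 (SE 0.41, limma adjusted p = 0.426). Irf8 lay at 856, 606, 543, 517 and 602 in CTRL and at 578, 814, 995, 255 and 837 in D30. T5 was the lowest and T4 the highest of the 10. Irf8 had a log2 fold change of 0.04 (SE 0.33, limma adjusted p = 0.969), and -0.18 when tumors were scaled by library size.

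Clec9a, the dendritic cell receptor for exposed actin of dead cells, ranged from 31.8 to 69.4 normalized counts in CTRL and from 0 to 44.0 in D30. Exons of Clec9a share bases with Clec1b on the same strand. Flt3, the receptor on which dendritic cells depend, ranged from 17.1 to 48.4 in CTRL and from 9.25 to 40.1 in D30. Siglech, a lectin of plasmacytoid dendritic cells, ranged from 3.54 to 14.6 in CTRL and from 0 to 9.16 in D30. T5 had no read of Clec9a, Siglech, Xcr1 or Cd209a, which allows up to 3.43 normalized counts of each, so that for Siglech and Cd209a little of a difference was detectable at this depth.

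Divided by exonic length, the order of the members was led by secreted proteins and enzymes. In CTRL the mean level was 45415 normalized counts per kilobase for Spp1, 19089 for Apoe, 12831 for Lyz2, 3302 for Cd14 and 3262 for Ctss. In D30 it was 28746 for Spp1, 10789.6 for Lyz2, 10721 for Apoe, 3808 for Ctss and 3672 for Arg1. The lowest level per kilobase was that of Timd4 in CTRL (1.19) and of Cd209a in D30 (0.434). Gpnmb moved from place 30 of 41 in CTRL to place 15 in D30, Nos2 from 31 to 16 and Arg1 from 11 to 5, while Cd163 went from place 28 to 35 and Adgre1 from 19 to 26. These places are of group means, and in D30 those of Gpnmb, Arg1, Nos2, Lyz2 and Ctss were raised by T4 or T5. When T4 and T5 were left out, Gpnmb took place 23, Nos2 place 27, Arg1 place 7 and Adgre1 place 21, Cd163 kept place 35, and Lyz2 (5588 normalized counts per kilobase) was below Apoe (11538).

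Further genes of the same pathways were read by list. Of 102 such genes 99 were tested, with 58 log2 fold changes below 0 and 41 above (median -0.14), and 7 passed by limma, 5 lower and 2 higher in D30. Over all tested genes 54.7% were below 0 (median -0.06) and 2.76% passed. Of the 35 further macrophage and monocyte genes, 28 were below 0 (median -0.42), and Maf and Stab1 fell. Maf encodes a transcription factor of resident macrophages and lay at 1289, 1376, 1077, 961 and 1301 normalized counts in CTRL and at 508, 683, 599, 269 and 593 in D30. Its groups did not overlap, and the log2 fold change was -1.23 (SE 0.25, limma adjusted p = 0.0208). Stab1, a scavenger receptor of macrophages and sinusoidal endothelium, ranged from 2588 to 5184 in CTRL and from 697 to 1987 in D30 (log2 fold change -1.50, SE 0.31, limma adjusted p = 0.0228). With 1 tumor left out, Maf was lost without N1, N2 or N6, and Stab1 without N2, N5, N6 or T5.

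Of 9 tested partners of the clearance receptors, Gas6, Tyro3 and Stab2 fell and Mfge8 rose. The calls of Tyro3 and Mfge8 were near the threshold: neither passed by edgeR, Tyro3 was lost under TMM scaling and without T4 and T5, and Mfge8 under library-size and upper-quartile scaling. With 1 tumor left out, Gas6 was lost without N1, N2, N4, N5, N6 or T1, and Stab2 without N2, N4, N5 or N6. Gas6, the ligand of AXL and MERTK, measured 1274, 1504, 1145, 856 and 1241 normalized counts in CTRL and 462, 631, 344, 125 and 588 in D30. No D30 tumor reached the CTRL range (log2 fold change -1.66, SE 0.38, limma adjusted p = 0.0350). Tyro3, the third receptor of that family, had a log2 fold change of -1.26 (SE 0.31, limma adjusted p = 0.0491). Stab2, a relative of STAB1 found on sinusoidal endothelium, had one of -1.92 (SE 0.39, limma adjusted p = 0.0208). Mfge8, which links dying cells to integrins, lay between 6448 and 8752 in CTRL and between 9738 and 14242 in D30, with no overlap (log2 fold change 0.69, SE 0.17, limma adjusted p = 0.0491). Maf, Stab1, Stab2 and Gas6 each share exonic bases with a gene on the other strand.

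Over all tested genes 17.3% had an unadjusted p under 0.05 and 2.76% passed by limma, and 8.08% passed by DESeq2. Of 15 classical activation genes 10 were above 0, 4 had an unadjusted p under 0.05, and 1 passed by limma and edgeR, against 5 by DESeq2 (Ccl3, Ccl4, Il23a, Il6 and Tnf). The 1 was Tnf, the gene of tumor necrosis factor, which rose from 65.2, 44.1, 72.2, 36.3 and 53.9 normalized counts in CTRL to 185, 209.6, 211, 97.3 and 112 in D30. Every D30 tumor was above every CTRL tumor (log2 fold change 1.54, SE 0.33, limma adjusted p = 0.0256). With 1 tumor left out, the call of Tnf was lost without N2, N5, N6, T1 or T2. None of the 14 alternative activation genes passed by limma, edgeR or DESeq2 (8 above and 6 below 0, median 0.06), and 1 had an unadjusted p under 0.05, Mgl2, a macrophage lectin (log2 fold change -1.69, limma adjusted p = 0.167). Next to it came Pparg, a lipid-sensing nuclear receptor (0.41, limma adjusted p = 0.331). None of the 8 genes of the CSF and FLT3 ligand axis passed by limma or edgeR (6 above, 2 below 0), and 1 had an unadjusted p under 0.05. It was Csf3, the granulocyte growth factor, which passed by DESeq2 and had a log2 fold change of 0.97 (limma adjusted p = 0.132) and Il34, the other ligand of CSF1R, one of -0.43 (adjusted p = 0.342). None of the 18 tested further dendritic cell genes passed by limma or edgeR (12 below, 6 above 0), while 7 had an unadjusted p under 0.05 and 2 passed by DESeq2. The smallest p values were those of Bst2 at 1.10 (limma adjusted p = 0.0618) and Siglec1, sialoadhesin, at -1.22 (limma adjusted p = 0.127). Neither gene is particular to dendritic cells.

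Markers of leukocytes as a whole, macrophages included, and of other cell types were read by list as well, and only Cdh5 among them passed by limma. The 7 leukocyte markers, Ptprc among them, summed to 6661 to 10930.5 normalized counts in CTRL and 6148 to 10060.2 in D30, with 6 of 7 below 0, none with an unadjusted p under 0.05 and none called by limma, edgeR or DESeq2. Endothelial markers were below 0 in 5 of 6, and their sums did not overlap (10987 to 18676 in CTRL, 5662 to 9672 in D30). Cdh5, a cadherin of endothelial junctions, was lower in D30 (log2 fold change -1.45, limma adjusted p = 0.0117). Fibroblast markers were below 0 in 8 of 8 (76539 to 135533, against 26981 to 102553) and T cell markers in 10 of 10 (1499.7 to 3645, against 909 to 1739.7). Tumor epithelium markers were above 0 in 7 of 8 (248932 to 371922, against 369636 to 572924). Acinar markers were below 0 in 8 of 8, from 41.0 to 63124 in CTRL and from 19.5 to 5536 in D30. At an unadjusted p under 0.05 there were 6 fibroblast, 3 T cell and 4 acinar markers, all lower in D30. Of the tumor epithelium markers 6 had such a p, 5 higher and 1 lower (log2 fold change -3.17). Such a p was found in 17.3% of all tested genes. None of these fibroblast, T cell, acinar and tumor epithelium markers was called by limma or edgeR. By DESeq2 2 fibroblast, 1 T cell and 2 tumor epithelium markers passed. The part of these lists in the falls of Cd163 and Csf1r and in the rise of Gpnmb was not tested.

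**Figure D4:**
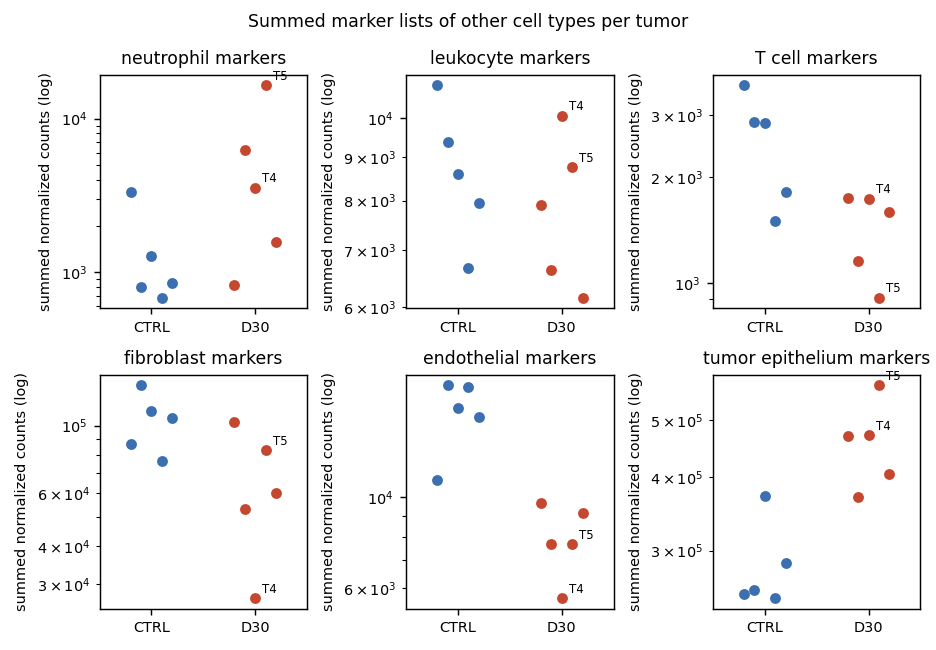
Summed normalized counts (log axes, each list with its own) of 6 marker lists, of leukocytes as a whole (macrophages included) and of other cell types, in the 5 CTRL and 5 D30 tumors, 1 point a tumor, T4 and T5 labelled. The endothelial sums of the groups do not overlap (5662 to 9672 in D30, 10987 to 18676 in CTRL), neutrophil sums reach 16498 in T5, and leukocyte sums cover much the same range in both groups.

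Of the remaining lists, those of NK cells, B cells and mast cells were small in reads. NK cell markers were below 0 in 4 of 5 tested, B cell markers in 4 of 6 and mast cell markers in 4 of 6, and adipocyte markers in 5 of 6, with none called by limma or edgeR. An unadjusted p under 0.05 was found for 1 NK cell, 2 B cell (1 higher and 1 lower) and 1 mast cell marker and for no adipocyte marker. By DESeq2 2 B cell markers passed.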

How the data were processed

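RNA-seq values of 10 tumors, 5 per group, were taken from 1 table of 55359 genes. The values deposited by the authors are a normalized signal, the form of DESeq2's normalized counts: reads per gene over the size factor of each tumor. According to the study's methods, strand-specific paired-end libraries were trimmed and aligned with STAR (2.7.0e) to hg38. The submitters' processing notes list GRCm39, and the identifiers are mouse Ensembl ones. RSEM and DESeq2 are named among the software. The strand setting of the counting and the annotation release are not given in the sources used here. In each column 100% of values were whole numbers of reads, within 0.01 read, once the step of 1 read was undone. Per-tumor depth is given with the results and limits only counting error.

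N columns were taken as CTRL by their letter and T columns as D30, the only other group. Column numbers could not be tied to the replicate numbers of the labels, which also call the tumors PDX while naming KPC K8484 cells as the source. A further allele of that line is not reported here. P-values measure the spread between these tumors. Names, lengths and positions are from GENCODE M21 (GRCm38), which named 94.1% of the rows, and promoters from RefSeq (GRCm38.p6).

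limma (3.58.1, R 4.3.3), with a mean-variance trend, was run on log2(normalized count + 1) over the 24560 genes with a mean of at least 1, with no covariates and Benjamini-Hochberg adjustment over all of them. Fold changes are on that scale, and for low genes they can be larger or smaller than those by edgeR. With tumors at 0 reads, Vsig4 was -2.37 by limma and -0.82 by edgeR, and Xcr1 was -1.73 and -1.22. Cd209a went the other way, at -2.49 and -3.36. All 41 members passed the filter, 34 with a read in every tumor. Two-sided exact permutation tests used every assignment of 5 tumors against 5. edgeR (4.0.16, quasi-likelihood), DESeq2 (1.42.0) and limma-voom on recovered reads, other pseudocounts, filters and scalings, and fits without single tumors or without T4 and T5 were alternatives. The scripts were tested on simulated data.

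Members and lists were chosen with earlier results of these data known. A member is described tumor by tumor if its adjusted or unadjusted p was under 0.05 or if it was among the 2 members of its role group with the most normalized counts per kilobase, 22 members in all. The others are given by range. Of other lists, genes past the test are named, or else the 2 with the smallest p.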

Additional observations from a re-analysis of the deposited data

Results flagged for a closer look

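Among the 82 sets of 5 log2 values (41 members in each group), 12 held 1 tumor whose gap to the nearest of the others, relative to the whole range of its group, was above Dixon's 95% critical value. Chance gives about 1 in 20. Of these tumors, T4 was 5 times the one set apart, T5 4 times, T2 2 times and N1 1 time.

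In D30, T4 was set apart upward in Spi1 (844 normalized counts, the others 451 to 517), Ctss (13680.4, the others 2223 to 3584), Msr1 (4001, the others 303 to 548), Fcgr4 (1403, the others 211 to 337) and Mertk (754, the others 175 to 257). T5 was set apart downward in Ly86 (82.4, the others 246 to 364), Apoe (9434, the others 22622 to 31165) and Clec9a (0, the others 14.4 to 44.0), and upward in Nos2 (4240.0, the others 200.1 to 378). T2 was set apart upward in Timd4 (16.0, the others 0 to 1.07) and in Cd209a (3.44, or 3 reads, the others all at 0), where any read at all would have set it apart and the limit of a zero covers the difference. In CTRL, N1 was set apart upward in Aif1 (690.1, the others 198 to 284).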

How the results depend on the processing

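No paired analysis was possible because the column numbers cannot be tied to the labels' replicate numbers, so no fit with a replicate block was made. Of the 41 members 3 passed by limma. The count was 6 under library-size scaling (3.53% of all genes called), 8 by DESeq2 (8.08%), 8 without T4 and T5 (8.57%) and 2 by edgeR (2.61%). It ranged from 0 (without N2) to 9 (without T4, 6.23%) when 1 tumor was left out, and was 1, Cd163, without any of N1, N4, N5, N6, T5 or T7. Of the other pathway genes 7 passed, against 18 by DESeq2, 16 without T4 and T5, and 0 (without N2 or N6) to 18 (without T4) when 1 tumor was left out. Members with an exact permutation p under 0.05 numbered 13 (17.8% of all genes), and up to 23 when 1 tumor (T4) was left out. The share of all genes without T4 was not computed for that test. By limma, genes with an unadjusted p under 0.05 rose from 4258 to 5510 of 24560 without T4. The median log2 fold change of the members, -0.41, was below 0 under every alternative run, from -0.72 (without T4) to -0.34 (by edgeR with DESeq2 size factors). Directions turned in 5 of the 22 members described: Ctss (0.21 by edgeR with TMM, 0.22 by edgeR with DESeq2 size factors and by DESeq2, -0.50 to 0.16 with 1 tumor left out), Msr1 (0.39, 0.41 and 0.41), Fcgr3 (0.38, 0.41 and 0.41, -0.75 to 0.15), Tyrobp (-0.13 under library-size scaling, -0.65 without T4 and T5, -0.45 to 0.36 with 1 left out) and Irf8 (-0.18 under library-size scaling, -0.13 to 0.36 with 1 left out). The causes were not tested. Over all alternatives of these 22 members, 417 values kept direction and call, 18 gained a call, 19 lost one and 27 turned. Those that turned include Ctss, Msr1 and Fcgr3 by DESeq2, which also had no adjusted p. The remaining 2 values, Lyz2 and Nos2 by DESeq2, kept direction but had no adjusted p. Depth limits the members under 100 normalized counts in every tumor, 10 of 41.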
